A study of Mus musculus with 4 samples.

Results

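The genes examined here are the Wnt ligands, their receptors and the modulators of the pathway, 51 of the 24637 genes listed for mouse embryonic stem cells (ESCs) differentiated towards cardiomyocytes. They were taken by a rule on gene names, chosen with earlier results of these data known. They comprise 19 Wnt ligands, 10 Frizzled receptors with the co-receptors *Lrp5* and *Lrp6*, and 8 secreted antagonists (4 *Sfrp* genes, 3 *Dkk* genes and *Wif1*). The others are 4 R-spondins with their receptor *Lgr5*, the scaffold and feedback genes *Axin1*, *Axin2* and *Nkd1*, and the 4 Tcf/Lef transcription factors. Polyadenylated RNA was sequenced in 4 libraries, 2 labelled WT (*Taf4*+/+) and 2 labelled *Taf4a*-/-. All lines came from blastocysts of crosses between heterozygous mice that carry a *Taf4a* null allele with a pair of exons deleted, and all were grown with LIF on inactivated fibroblast feeders before differentiation. Cells of both genotypes were then kept for 5 days as embryoid bodies in medium with 20% heat-inactivated serum and for 9 days on gelatin-coated plates. The question is how the RNA levels of the Wnt pathway differ between WT and *Taf4a*-/- cultures at this single time. The methods of the paper describe replicates from 2 independent ESC lines of each genotype, while the sample titles give replicate numbers only. In the spread between replicates, lines and cultures therefore cannot be told apart.

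Wnt proteins are secreted, lipid-modified ligands that bind Frizzled receptors together with Lrp5 or Lrp6. Binding stops a complex that contains Axin from marking β-catenin for degradation, and β-catenin then enters the nucleus and acts with Tcf/Lef factors on target genes. Sfrp proteins and Wif1 bind Wnt ligands outside the cell, Dkk1 and Dkk2 act on the Lrp co-receptors, and R-spondins raise receptor levels through Lgr receptors. In cardiac differentiation the pathway is known for opposed roles over time, promoting mesoderm early and holding back cardiac specification later, and some ligands such as Wnt5a and Wnt11 act largely without β-catenin.

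Libraries held 21732746 to 27733034 reads on genes, recovered from the normalized counts that the authors deposited, and values below are normalized counts unless a scale is named. Of 16926 genes with a mean of at least 10, the limma test called 11.3% higher and 17.3% lower in the libraries labelled *Taf4a*-/- (adjusted p-value under 0.05, Benjamini-Hochberg method), in all 1906 and 2928 genes, against 2676 and 2448 with quantile normalization. *Taf4a*, the targeted gene, had 889 and 678 normalized counts in WT and 1722 and 1799 in those labelled *Taf4a*-/-. Its gene-level count, which also covers the exons that were not deleted, was thus higher there, and directions below are between labels. Pairs of values are for replicates 1 and 2, in that order. All 8 cardiomyocyte markers were detected in every library and all were called lower in those labelled *Taf4a*-/-, where they summed to 1551 to 1761 against 20315 to 22211 in WT. Markers of other cells moved with genotype too. All 8 visceral endoderm and liver markers (68236 to 86379 in WT, 674 to 835 in the others) and all 8 macrophage markers (9472 to 10741 and 41.1 to 90.7) were called lower, with *Alb* and *C1qa* at 0 in both libraries labelled *Taf4a*-/-. Of 8 mesothelium and fibroblast markers 5 were lower and 1, *Tbx18*, was higher (163005 to 259118 and 25437 to 34801), while *Wt1* and *Tcf21* were not called. In WT most of that sum was *Col1a1*, with 114769 and 194896 against 13344 and 16577.5, so the sum does not describe the list as a whole. Of 8 pluripotency markers 7 were higher (1787 to 5193 and 16152 to 18521). Of the 6 endothelial, 4 neural, 3 neural crest, and 6 primitive streak and presomitic markers tested, limma called 0, and 2, 0, 1 and 2 had an unadjusted p under 0.05. In such bulk cultures fewer cells of a type and less RNA per cell cannot be told apart. The part of cell composition in the Wnt pathway differences was not tested.

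Of the 51 genes, 49 had a mean of at least 10 normalized counts and were tested. Among these, 14 fell and 4 rose in the libraries labelled *Taf4a*-/-. That is 36.7% called in either direction, against 28.6% of all genes tested. When WT replicate 1 was left out, 11 fell and 8 rose, and when WT replicate 2 was left out, 10 fell and 2 rose. The falls were in 6 of 17 tested ligands, 5 of 8 antagonists, 2 of 12 receptors and *Nkd1*, and the rises in *Wnt2b*, *Rspo4*, *Tcf7* and *Lef1*. Over all genes tested 17.3% fell, and the receptors, at 16.7%, were near that share. The median log2 fold change was -0.32, against -0.012 over all genes tested. Both libraries of one genotype lay outside the range of the other for 38 of the tested genes, 25 lower and 13 higher in those labelled *Taf4a*-/-. Over all genes tested this was so for 71.1%, with 36.6% lower and 34.5% higher. An exact permutation test cannot give a two-sided p-value below 0.333 in this design, and the calls rest on the spread that limma shares across genes. Fold changes are on the scale log2(normalized count + 1), which understates the change of genes with few counts.

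**Figure D1:**
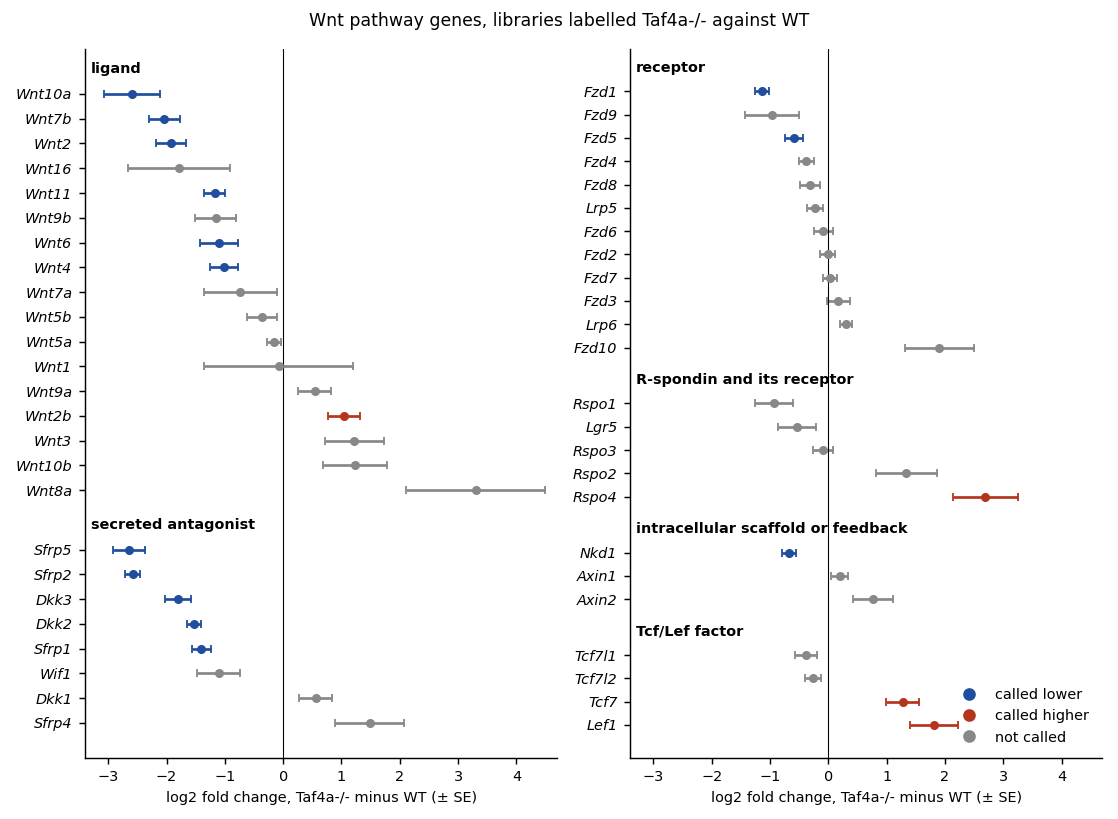
Log2 fold change (libraries labelled *Taf4a*-/- minus WT, x axis, ± SE from limma) of the 49 tested genes, grouped by role, with genes called lower in blue, called higher in red and not called in grey. The antagonists *Sfrp5* (-2.64) and *Sfrp2* (-2.58) and the ligand *Wnt10a* (-2.60) are the lowest points, and *Wnt8a* (3.30), the highest, has a wide error and is not called.

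**Figure D2:**
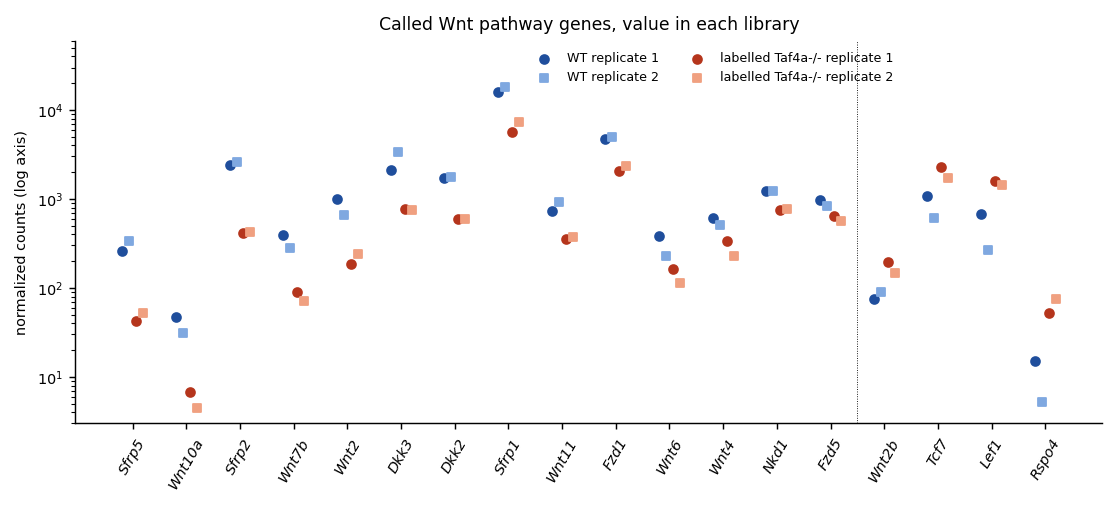
Normalized counts (log axis) of the 18 called genes in each of the 4 libraries, ordered by log2 fold change, where blue symbols are WT, red symbols are labelled *Taf4a*-/-, circles are replicate 1 and squares replicate 2, and the dotted line parts the 14 genes that fell from the 4 that rose. In each of the 18 genes both libraries of one genotype lie outside the range of the other, as for 71.1% of all genes tested. The genes were called on these same libraries, so this separation adds no support to the calls. *Sfrp1* is the most abundant, with 15914 and 18056 normalized counts in WT.

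In all, 5 of the 8 secreted antagonists fell. *Sfrp1* (ENSMUSG00000031548, chr8:24521974-24560104 on NCBIM37, plus strand), which encodes a secreted Frizzled-related protein that binds Wnt ligands, had 15914 and 18056 normalized counts in WT and 5637 and 7238 in those labelled *Taf4a*-/-. It was 2.64-fold lower on the means, with a log2 fold change of -1.41 (SE 0.16, adjusted p = 0.0037) from limma. *Sfrp2* (ENSMUSG00000027996, chr3:83570243-83578238, plus strand), of the same family, had 2423 and 2628 in WT against 418 and 422. These values are close to each other within each genotype, and *Sfrp2* was 6.01-fold lower, with a log2 fold change of -2.58 (SE 0.12, adjusted p = 0.000556). *Sfrp5* (ENSMUSG00000018822, chr19:42272461-42276742, minus strand) had 262 and 338 in WT and 42.1 and 52.0 in the others, 6.38-fold lower (log2 fold change -2.64, SE 0.27, adjusted p = 0.00265). In each of the *Sfrp* genes that fell, both WT libraries were above both others, as they were for 36.6% of all genes tested. Of the *Dkk* genes, *Dkk2* (ENSMUSG00000028031, chr3:131748256-131843257, plus strand), whose product binds Lrp6, had 1702 and 1760.1 in WT against 602 and 601, a log2 fold change of -1.52 (SE 0.12, adjusted p = 0.00134). *Dkk3*, a divergent family member placed among the antagonists by its name, had 2095 and 3353 against 763 and 748 and a log2 fold change of -1.81 (SE 0.22, adjusted p = 0.00413).

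The other 3 antagonists did not pass the test. *Dkk1*, which blocks Lrp5 and Lrp6 and is itself a known Wnt target, had 649 and 357 normalized counts in WT and 757 and 662 in those labelled *Taf4a*-/-, a log2 fold change of 0.56 (SE 0.29, adjusted p = 0.19). In *Dkk1* the difference between the WT libraries exceeded that between the genotypes, and without WT replicate 1 it was called, at 0.98 (adjusted p = 0.024, range over the alternatives 0.024 to 0.56). Without WT replicate 2 its log2 fold change was 0.13 (adjusted p = 0.56). *Wif1*, the Wnt inhibitory factor, had 44.7 and 36.4 against 17.6 and 18.8, a log2 fold change of -1.11 (SE 0.37, adjusted p = 0.0714). With no variance trend *Wif1* was called (adjusted p = 0.0304 from limma). *Sfrp4* had few counts, 3.51 and 9.35 against 15.7 and 21.0 (adjusted p = 0.109). Since the libraries do not mark strand, reads of a gene and of an annotated antisense gene over its exons cannot be told apart, which touches 16.1% of the exonic length of *Sfrp2*, 10.02% of *Wnt11*, 5.39% of *Tcf7l1*, 4.58% of *Wnt5a*, 3.80% of *Axin2* and 0.861% of *Wnt7b*.

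To compare levels between genes, values were divided by exonic length. On this scale *Sfrp1* alone made up 58.0% and 57.6% of the summed antagonist level in WT replicates 1 and 2, and 58.1% and 64.9% in those labelled *Taf4a*-/-. The 8 antagonists together reached 6275 and 7168 normalized counts per kb in WT, and 2219 and 2550.2 in the others. Both libraries labelled *Taf4a*-/- were thus lower, and the sum was 2.82-fold lower on the means (6721 ± 631 against 2384 ± 234 per kb, SD, n = 2 each, not tested). The fold was 3.07 for the *Sfrp* genes of the group and 2.19 for its *Dkk* genes, although *Dkk1* and *Sfrp4* had higher values in those labelled *Taf4a*-/-. The divergent *Dkk3* was the most abundant *Dkk* gene in WT (811 per kb). An extra gene outside the group, *Frzb*, belongs to the *Sfrp* family under another name and is not in these sums. *Frzb* had 999 and 1064 normalized counts in WT against 1056 and 1115. It overlapped between genotypes and was not called (log2 fold change 0.073, SE 0.12, adjusted p = 0.682 from limma). *Dkk1* stood behind *Sfrp1* alone in those labelled *Taf4a*-/- (292 per kb), and behind *Sfrp1*, *Sfrp2*, *Dkk3* and *Dkk2* in WT (207 per kb).

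**Figure D3:**
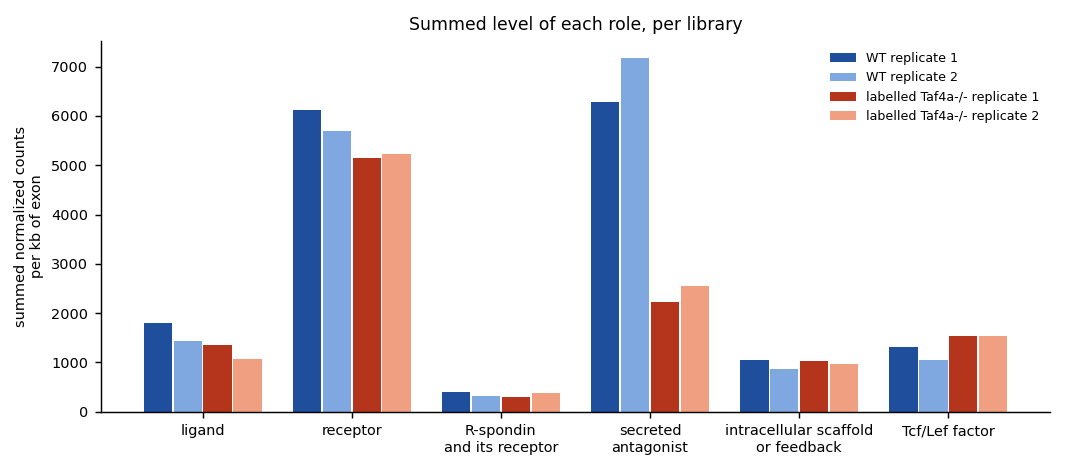
Summed level of each role in each library, as normalized counts per kb of exon (y axis, from 0), with WT bars in blue and the libraries labelled *Taf4a*-/- in red, 1 bar a library. The secreted antagonists stand at 6275 and 7168 in WT against 2219 and 2550.2, while the R-spondin and scaffold groups overlap between genotypes.

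Taf4 is a subunit of TFIID, the complex that recognizes core promoters, and the bases just before the start sites of 6 called genes are shown for that reason. The sequences are from RefSeq on GRCm38.p6, another build than that of the counts, and 34 of the 51 genes, 14 of the 18 called, had an entry there. Each line holds the 100 bases before the annotated start, 5′ to 3′, for the first entry of the gene. Capitals mark exact matches, on either strand, to the TATA box letters TATAAA, the GC box letters GGGCGG, and the Tcf/Lef letters CTTTGAA or CTTTGAT.
Sfrp2 (chr3:83766221-83766320, plus strand): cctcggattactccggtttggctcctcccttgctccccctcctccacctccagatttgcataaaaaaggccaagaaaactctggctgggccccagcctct
Sfrp5 (chr19:42202253-42202352, minus strand): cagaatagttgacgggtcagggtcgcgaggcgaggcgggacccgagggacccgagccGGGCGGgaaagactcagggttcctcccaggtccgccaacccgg
Dkk2 (chr3:132085192-132085291, plus strand): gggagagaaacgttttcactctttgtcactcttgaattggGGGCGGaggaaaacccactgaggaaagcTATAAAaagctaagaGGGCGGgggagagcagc
Wnt11 (chr7:98835012-98835111, plus strand): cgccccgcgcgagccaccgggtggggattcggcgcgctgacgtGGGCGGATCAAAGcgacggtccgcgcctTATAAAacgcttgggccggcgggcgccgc
Lef1 (chr3:131110197-131110296, plus strand): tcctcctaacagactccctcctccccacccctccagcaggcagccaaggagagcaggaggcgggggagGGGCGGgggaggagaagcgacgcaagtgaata
Rspo4 (chr2:151842827-151842926, plus strand): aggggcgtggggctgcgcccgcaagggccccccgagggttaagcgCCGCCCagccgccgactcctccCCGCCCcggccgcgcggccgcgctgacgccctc

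In the 250 bases before the start, the Tcf/Lef letters were found in 3 of 42 windows of these genes (*Dkk1*, *Wnt11* and *Wnt5b*), 7.14%, against 7.48% of all 32851 windows in the table. TATAAA on either strand was found in 8 of the 42 windows (19.0%, against 12.4%). On the sense strand and beginning 20 to 40 bases before the start, it was found in 2 of 42 windows (4.76%, against 1.99%). These were the windows of *Dkk2* and *Wnt11*, both among the printed sequences, which therefore do not represent the group in this respect. GGGCGG was found in 30 of 42 windows (71.4%, against 32.7%). Base composition was not matched in these comparisons, and the printed sequences held from 51% (*Dkk2*) to 83% (*Rspo4*) G or C. In the printed sequences the Tcf/Lef match and the GC box of *Wnt11* adjoin, so that they form 1 run of capitals. These are matches of letters and not measured sites.

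The ligands that fell were *Wnt2*, *Wnt4*, *Wnt6*, *Wnt7b*, *Wnt10a* and *Wnt11*. *Wnt2* (ENSMUSG00000010797, chr6:17938940-17980585, minus strand), a ligand known from heart and lung mesoderm, had 998 and 655 normalized counts in WT and 187 and 240.0 in those labelled *Taf4a*-/-. It was 3.87-fold lower, with a log2 fold change of -1.93 (SE 0.25, adjusted p = 0.00494) from limma. *Wnt7b* (ENSMUSG00000022382, chr15:85365869-85412251, minus strand) had 394 and 278 in WT against 90.1 and 70.8, a log2 fold change of -2.04 (SE 0.27, adjusted p = 0.00514). Neither gene overlapped between genotypes, which was so for 71.1% of all genes tested, and both calls held under every alternative tried. *Wnt11* (ENSMUSG00000015957, chr7:105983622-106003705, plus strand), a non-canonical ligand active in cardiogenesis, had 730.3 and 929.9 against 357 and 371 (log2 fold change -1.18, SE 0.17, adjusted p = 0.0068), and its call held likewise. *Wnt10a* was low throughout, with 47.3 and 31.2 in WT and 6.85 and 4.42 in the others, and its log2 fold change of -2.60 (SE 0.48, adjusted p = 0.014) was no longer called without WT replicate 2 (-2.89, adjusted p = 0.0508, range over the alternatives 0.012 to 0.0508).

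The falls of *Wnt4* and *Wnt6* were nearer the threshold. *Wnt4*, a ligand of kidney and gonad development, had 615 and 508 normalized counts in WT and 339.7 and 226 in those labelled *Taf4a*-/-, a log2 fold change of -1.01 (SE 0.24, adjusted p = 0.0278). *Wnt6* had 384 and 229.6 against 164 and 115, a log2 fold change of -1.10 (SE 0.32, adjusted p = 0.0478). In both, the higher library labelled *Taf4a*-/- was below the lower WT library, but the calls were lost when single libraries were left out, with adjusted p-values from limma of up to 0.115 for *Wnt4* (without either WT library or without the library labelled *Taf4a*-/- replicate 2) and 0.16 for *Wnt6* (without the same libraries). *Wnt6* lost its call in 10 of 16 alternatives, also with equal totals (0.0623), TMM scaling (0.051), quantile normalization (0.103), no filter (0.0527), no variance trend (0.102), voom (0.0716) and at the threshold of 0.01. *Wnt4* lost its call in 5, also with no variance trend (0.0761). *Wnt9b* had 123 and 74.8 against 45.0 and 39.8 and narrowly missed the threshold, at a log2 fold change of -1.16 (SE 0.35, adjusted p = 0.0526).

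*Wnt2b*, a paralogue of *Wnt2*, was the only ligand that rose. It had 74.5 and 90.4 normalized counts in WT and 197 and 148 in those labelled *Taf4a*-/-, 2.09-fold higher with a log2 fold change of 1.05 (SE 0.27, adjusted p = 0.0348). The paralogues thus went in opposite directions, but the call of *Wnt2b* was lost without any one of the 4 libraries (adjusted p = 0.0654 to 0.212 from limma). Among the others, *Wnt3*, *Wnt8a* and *Wnt10b* had higher values in both libraries labelled *Taf4a*-/- without a call. *Wnt3*, required for the primitive streak, had 253 and 99.7 in WT and 518 and 267 in the others, a log2 fold change of 1.22 (SE 0.50, adjusted p = 0.118). It ran from 0.55 without WT replicate 2 to 1.89 without WT replicate 1, and was 1.70 without replicate 2 labelled *Taf4a*-/-. *Wnt3* was called under 2 of 16 alternatives, that last fit among them, with a lowest adjusted p of 0.016 from limma. *Wnt8a*, expressed in the streak, had 94.7 and 5.20 against 348 and 164, a log2 fold change of 3.30 (SE 1.20, adjusted p = 0.0865). The WT libraries differed in *Wnt8a* by 3.95 on the log2 scale, more than the genotypes, and without WT replicate 1 the log2 fold change was 5.27 (adjusted p = 0.0168, range over the alternatives 0.0168 to 0.182). Without WT replicate 2 it was 1.32 (adjusted p = 0.17), so that the size rests on WT replicate 2. *Wnt10b* had 22.8 and 31.2 against 108 and 37.6, where the libraries labelled *Taf4a*-/- differed from each other by more than the genotypes. Its log2 fold change was 1.23, SE 0.55, adjusted p = 0.141, against 0.48 (adjusted p = 0.639) without replicate 1 labelled *Taf4a*-/- and 1.97 (adjusted p = 0.0304), a call, without replicate 2 so labelled.

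The summed level of the 7 streak and presomitic mesoderm markers was 1133 and 240.0 in WT and 2113 and 1412 in those labelled *Taf4a*-/-, with *Msgn1* at 0 in both WT libraries. The 8 pluripotency markers summed to 5193 and 1787 in WT and 16152 and 18521 in the others. Both lists therefore had their lowest sum in WT replicate 2, where *Wnt3* and *Wnt8a* were lowest too. *Wnt2b*, *Wnt9a* and *Wnt10b*, also higher in both libraries labelled *Taf4a*-/-, were lowest in WT replicate 1. Most of the streak sum was *Eomes* (706 and 158 in WT, 1225 and 940.1 in the others). The part of either list in the values of these ligands was not tested.

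The ligands with no call also include *Wnt5a*, the non-canonical ligand, which was among the most abundant and had 1879.7 and 1694 normalized counts in WT and 1642 and 1564 in those labelled *Taf4a*-/-. Its log2 fold change was -0.16 (SE 0.12, adjusted p = 0.365). *Wnt5b* had 341 and 227 against 239.8 and 195 and overlapped between genotypes (adjusted p = 0.333), whereas *Wnt9a* had 316 and 567 against 594 and 641, with both libraries labelled *Taf4a*-/- above WT (log2 fold change 0.54, SE 0.28, adjusted p = 0.192). Without WT replicate 2 *Wnt9a* was called, at 0.96 (adjusted p = 0.0425), and without WT replicate 1 its log2 fold change was 0.12 (adjusted p = 0.499). *Wnt7a* (41.2 and 17.7 against 9.79 and 25.4) and *Wnt16* (11.4 and 20.8 against 9.79 and 1.11) had few counts and were not called, with adjusted p = 0.415 and 0.171 from limma. *Wnt16* was called without replicate 1 labelled *Taf4a*-/-, at -2.96, and had a log2 fold change of -0.61 without replicate 2 so labelled. The called fit rests on 1 read of *Wnt16* in replicate 2 labelled *Taf4a*-/-, under the floor of 3 reads. *Wnt1*, a ligand of midbrain and neural crest, had 73.6 and 7.27 in WT and 62.7 and 7.74 in those labelled *Taf4a*-/-. It was higher in replicate 1 of either genotype, and its log2 fold change had an SE of 1.27 and an adjusted p of 0.97. The other 2 ligands had a mean under 10 and were not tested, *Wnt3a* with 12.3 and 0 against 12.7 and 5.53 and *Wnt8b* with 20.2 and 2.08 against 0 and 2.21. For *Wnt8b* both libraries labelled *Taf4a*-/- were under 3 reads, the level taken as the floor of detection, and so was WT replicate 2. Counting error alone is covered by that floor.

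Per kb of exon, the order of the ligands differed between the genotypes. In WT *Wnt2* stood first with 366 normalized counts per kb, which was 24.6% and 20.3% of the summed ligand level in replicates 1 and 2. It was followed by *Wnt11* (228) and *Wnt5a* (228), whose WT values overlapped, and then by *Wnt6* (148) and *Wnt4* (134), which overlapped as well. In the libraries labelled *Taf4a*-/- *Wnt5a* stood first with 205 per kb, 15.4% and 18.8% of the sum, ahead of *Wnt9a* (186), *Wnt8a* (146) and *Wnt3* (128). The replicates of *Wnt8a* lay so far apart there that its range reached beyond that of *Wnt9a* on both sides. There *Wnt2* had 94.7 per kb, 6.10% and 10.0% of the sum. The sum over all 19 ligands was 1799.8 and 1431 per kb in WT and 1359 and 1063 in the others, so the summed level differed by 1.33-fold on the means (not tested).

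Several ligand genes lie side by side in the genome, in 4 pairs less than 100 kb apart. *Wnt6* (ENSMUSG00000033227, chr1:74818466-74831893, plus strand) and *Wnt10a* (ENSMUSG00000026167, chr1:74838090-74850753, plus strand) are 6.20 kb apart, and both fell. *Wnt3* (ENSMUSG00000000125, chr11:103635464-103679271, plus strand) and *Wnt9b* (ENSMUSG00000018486, chr11:103588678-103611135, minus strand) are 24.3 kb apart, with log2 fold changes of 1.22 and -1.16, neither called. *Wnt1* and *Wnt10b* on chromosome 15 (11.7 kb apart, log2 fold changes -0.075 and 1.23) were not called either. Of the pair on chromosome 11, *Wnt9a* and *Wnt3a* (16.2 kb apart), *Wnt3a* was too low to be tested.

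Among the receptors, *Fzd1* and *Fzd5* fell, 16.7% of those tested against 17.3% of all genes, and limma called 0 of 12 higher (2 at an unadjusted p under 0.05). *Fzd1* (ENSMUSG00000044674, chr5:4753842-4758216, minus strand) had 4676 and 4926 normalized counts in WT and 2055 and 2319 in those labelled *Taf4a*-/-. It was 2.20-fold lower, with a log2 fold change of -1.14 (SE 0.12, adjusted p = 0.00289) from limma, and kept its call under every alternative. *Fzd5* had 980.2 and 828 in WT against 639 and 559, and its log2 fold change of -0.59 (SE 0.16, adjusted p = 0.0371) was not called without any one of the 4 libraries (adjusted p up to 0.219), with equal totals (0.0604), quantile normalization (0.0651), no variance trend (0.0905) or voom (0.0641), and in 10 of 16 alternatives in all. The most abundant receptor, *Fzd7*, a Frizzled of pluripotent cells, had 6853 and 6249.9 against 6748 and 6610.4. Its log2 fold change was 0.029 (SE 0.12, adjusted p = 0.87), and *Fzd2* (4286 and 3595 against 3778 and 4019) had one of -0.011 (SE 0.13, adjusted p = 0.958). Both genes overlapped between genotypes.

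The co-receptors Lrp5 and Lrp6 are needed for β-catenin signalling. *Lrp5* had 4129 and 3434 normalized counts in WT and 3349 and 3086 in those labelled *Taf4a*-/- (log2 fold change -0.23, SE 0.14, adjusted p = 0.246), and *Lrp6* had 4726 and 4488 against 5700.2 and 5662 (log2 fold change 0.30, SE 0.11, adjusted p = 0.0873). *Lrp6* was thus higher and *Lrp5* lower in both libraries labelled *Taf4a*-/-, without a call for either over all libraries, and without WT replicate 1, *Lrp6* was called at 0.34 (adjusted p = 0.047). *Fzd3*, *Fzd4*, *Fzd6* and *Fzd8* had log2 fold changes of 0.17, -0.38, -0.084 and -0.32, none called, with means over the 4 libraries from 478 to 1596 normalized counts. *Fzd9* was low (66.6 and 36.4 against 32.3 and 18.8, adjusted p = 0.168). *Fzd10* had 49.972 and 13.5 in WT and 98.9 and 103 in the others, a log2 fold change of 1.91 (SE 0.60, adjusted p = 0.0586). It was called under 5 of 16 alternatives, among them voom (0.0447), and had a log2 fold change of 1.00 (adjusted p = 0.0972) without WT replicate 2 and 2.81 (adjusted p = 0.0172) without WT replicate 1. Its count is uncertain because 74.8% of its exonic length overlaps a second annotated gene of the same name. Per kb, the order in WT was *Fzd7* (1365), *Fzd1* (1097) and *Fzd2* (1086), with *Fzd1* and *Fzd2* overlapping, and in those labelled *Taf4a*-/- *Fzd7* (1391) and *Fzd2* (1075) were followed by *Lrp5*, *Lrp6* and then *Fzd1* (499.9).

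R-spondins enhance Wnt signals through Lgr receptors. *Rspo4* (ENSMUSG00000032852, chr2:151668663-151700404, plus strand) rose from 14.9 and 5.20 normalized counts in WT to 52.9 and 75.2 in those labelled *Taf4a*-/-. On these few counts it was 6.37-fold higher on the means, with a log2 fold change of 2.69 (SE 0.56, adjusted p = 0.0189) from limma. *Rspo4* was not called without WT replicate 2 (2.01) or without the library labelled *Taf4a*-/- replicate 2 (2.44). *Rspo3*, the most abundant R-spondin, had 529.5 and 467 against 424 and 511, overlapping between genotypes (log2 fold change -0.095, SE 0.17, adjusted p = 0.706). *Rspo1* (236 and 159 against 81.2 and 126) was lower and *Rspo2* (111 and 37.4 against 138 and 197) higher in both libraries labelled *Taf4a*-/-, without a call (adjusted p = 0.0791 and 0.105). *Rspo2* was called without WT replicate 1, at 2.11 (adjusted p = 0.0268), and had a log2 fold change of 0.56 (adjusted p = 0.288) without WT replicate 2. *Lgr5*, an R-spondin receptor and Wnt target of stem cells, had 185 and 254 against 194 and 114 and overlapped (adjusted p = 0.25). The summed R-spondin level per kb was 383 and 290.4 in WT and 283 and 369 in the others, and these sums overlapped.

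Of the 4 Tcf/Lef factors, *Lef1* and *Tcf7* rose. *Lef1* (ENSMUSG00000027985, chr3:130813389-130927274, plus strand), itself a target of the pathway, had 686 and 265 normalized counts in WT and 1583 and 1428 in those labelled *Taf4a*-/-. It was 3.17-fold higher, with a log2 fold change of 1.82 (SE 0.41, adjusted p = 0.0241) from limma. *Tcf7*, which encodes Tcf1, had 1079 and 609.9 against 2265 and 1699.9, a log2 fold change of 1.27 (SE 0.29, adjusted p = 0.0236). For both genes WT replicate 2 was the lowest library, and leaving it out lowered the log2 fold changes to 1.13 for *Lef1* (adjusted p = 0.0356) and 0.86 for *Tcf7*, which was then not called (adjusted p = 0.0751). With no variance trend neither was called (adjusted p = 0.0839 and 0.0829 from limma). *Tcf7l1*, which encodes Tcf3, the repressor of the family in ESCs, had 2462 and 2255 against 1501 and 2183 (adjusted p = 0.183), and *Tcf7l2* had 923 and 1090.0 against 820.3 and 850.5 (adjusted p = 0.205). Both of these had lower values in those labelled *Taf4a*-/-. Per kb, *Tcf7l1* was the most abundant factor in WT (709.7), ahead of *Tcf7* (303), whereas *Tcf7* (711) and *Tcf7l1* (554) overlapped in those labelled *Taf4a*-/-.

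*Nkd1*, which encodes an inhibitor that binds Dishevelled and is induced by Wnt signals, fell from 1227 and 1216 normalized counts in WT to 758 and 776 in those labelled *Taf4a*-/-, with replicates close together and a log2 fold change of -0.67 (SE 0.12, adjusted p = 0.013). Without either library labelled *Taf4a*-/- it was not called (adjusted p = 0.087 and 0.0725 from limma). *Axin2*, the scaffold widely used as a readout of β-catenin activity, had 743 and 415 against 1208 and 735, a log2 fold change of 0.76 (SE 0.34, adjusted p = 0.14). The genotypes overlapped in *Axin2*, whose replicate 1 was above replicate 2 in both. Its log2 fold change was 1.18 (adjusted p = 0.0738) without WT replicate 1 and 0.34 (adjusted p = 0.51) without WT replicate 2. Without replicate 1 labelled *Taf4a*-/- it was 0.41, and without replicate 2 so labelled it was 1.12. *Axin2* was called under 2 of 16 alternatives, that last fit among them, with a lowest adjusted p of 0.0214 from limma. *Axin1*, the constitutive scaffold, had 2461 and 1953 against 2444 and 2565 (log2 fold change 0.19, SE 0.15, adjusted p = 0.354) and overlapped too.

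The WT replicates were not alike in these genes. On the log2 scale, 8 of the 49 tested genes were higher by 1 or more in WT replicate 1 than in replicate 2, from 3.95 for *Wnt8a* and 3.17 for *Wnt1* to 1.18 for *Wnt7a*, and 1, *Sfrp4*, was lower by 1 or more. They include *Lef1*, *Rspo4*, *Wnt3*, *Fzd10* and *Rspo2*. Between the libraries labelled *Taf4a*-/- 4 genes were higher and 1 lower in replicate 1 by as much, and *Wnt1* and *Wnt8a* were again among the higher. The median absolute difference between replicates was 0.45 in WT and 0.27 in those labelled *Taf4a*-/-, and that between the genotypes was 1.01. Over all genes tested the same values were 0.26, 0.16 and 0.42.

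**Figure D4:**
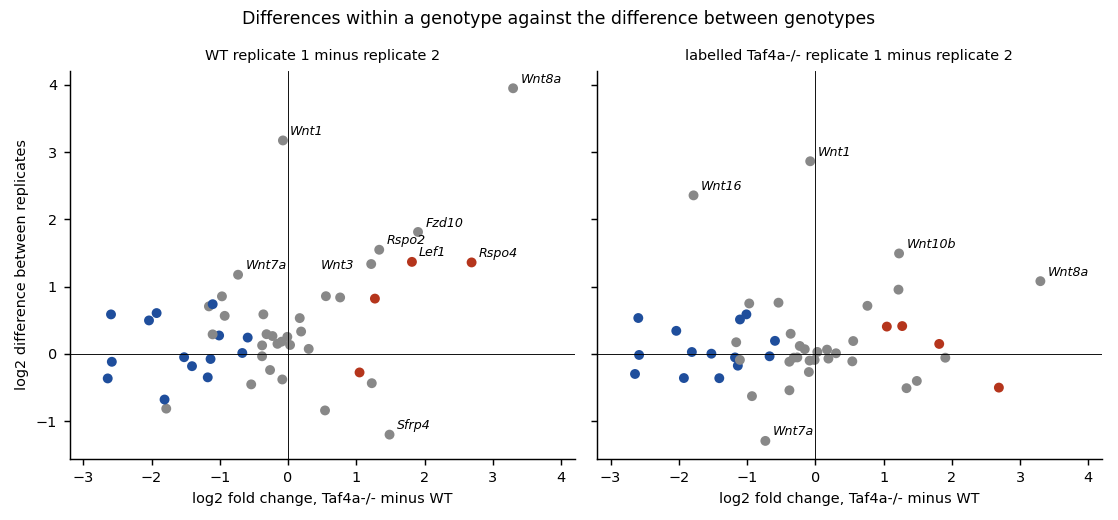
Log2 difference between replicates 1 and 2 (y axis) within WT (left) and within those labelled *Taf4a*-/- (right) against the log2 fold change between genotypes (x axis), 1 point per tested gene, coloured as called lower (blue), called higher (red) or not called (grey). *Wnt8a* (3.95) and *Wnt1* (3.17) stand highest in WT, and genes with a difference of at least 1 are named.

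Other genes of the pathway were taken from lists that hold none of the 51 genes, and 3 of their target genes (*T*, *Tbx6* and *Msgn1*) are also among the streak and presomitic markers. Of 102 such genes 101 were found and 96 tested, and 17 fell and 6 rose in the libraries labelled *Taf4a*-/- (24% called, against 28.6% of all genes, and 15 and 10 with quantile normalization), with a median log2 fold change of -0.015. Among 13 genes listed as other extracellular inhibitors and modulators 6 fell, and limma called 0 higher (0 at an unadjusted p under 0.05), that is 46.2% called. The list does not separate inhibitors from other modulators. *Sostdc1*, a secreted Wnt and BMP antagonist, had 73.6 and 54.0 normalized counts in WT and 0.979, which is 1 read, and 9.95 in the others (log2 fold change -3.78, SE 0.83, adjusted p = 0.022). *Cthrc1*, a secreted protein that binds Wnt ligands and receptors, had 2255 and 3600.3 against 606 and 603 (log2 fold change -2.24, SE 0.22, adjusted p = 0.00256). Both were lower in each library labelled *Taf4a*-/-, as were *Shisa2*, *Shisa3*, *Kremen1* and *Bambi*, whose log2 fold changes ran from -2.14 to -0.44.

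Of 17 genes of β-catenin and its destruction complex 1 was called, that is 5.88% against 28.6% of all genes tested. It was *Fam123a* (*Amer2*), with 95.6 and 113 normalized counts in WT and 33.3 and 35.4 in those labelled *Taf4a*-/- (log2 fold change -1.57, SE 0.30, adjusted p = 0.0145). *Ctnnb1*, which encodes β-catenin, had 32383 and 29757 against 39145 and 41559, a log2 fold change of 0.38 (SE 0.15, adjusted p = 0.116). Of the secretion genes, *Wls*, the carrier of Wnt ligands, had 8245 and 11756 against 7873 and 8024 (adjusted p = 0.25), and *Porcn*, the enzyme that acylates them, had 514 and 811 against 1047 and 2472 (adjusted p = 0.0599). Neither was called, although *Porcn* was higher in both libraries labelled *Taf4a*-/-. Of the 13 nuclear cofactors 3 were called, 23.1% against 28.6% of all genes tested. The Groucho co-repressors *Tle3* and *Tle4* rose (log2 fold changes 0.67 and 0.79) and *Aes*, a short relative of theirs, fell from 3683 and 4571 to 1876 and 1781 (-1.17, SE 0.14, adjusted p = 0.00389).

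Of 12 planar cell polarity genes, which act with non-canonical ligands, 3 fell and 2 rose (41.7% called, against 28.6% of all genes tested). *Prickle2* had 1217 and 1414 normalized counts in WT and 325 and 554 in those labelled *Taf4a*-/- (log2 fold change -1.63, SE 0.26, adjusted p = 0.00897), *Celsr2* had a log2 fold change of -1.18, and those of *Daam2* and *Scrib* were 0.69 and 0.65. In the lists of other receptors, of receptor turnover and of Dishevelled and its adaptors, *Tspan12* (-0.51), *Lgr6* (-1.34) and *Nkd2* (-1.15) fell, 1 gene in each of 9, 4 and 8 tested. That is 11.1%, 25% and 12.5% called, each below the 28.6% of all genes tested. *Nkd2*, the paralogue of *Nkd1*, had 184 and 209 against 103 and 75.2. Textbook transcriptional targets had no common direction, with 3 of 17 lower and 2 higher (29.4% called). *Cdx1*, a caudal homeobox gene, rose from 3.51 and 5.20 to 35.2 and 21.0 (log2 fold change 2.42, SE 0.52, adjusted p = 0.0211), whereas *Jag1* (-0.94) and *Ccnd2* (-0.72) fell. Of 2 targets chosen after their values were seen, *T* (Brachyury) had 194 and 13.5 in WT and 405 and 210.1 in those labelled *Taf4a*-/-, and *Sp5*, a direct target in ESCs, had 224 and 115 against 293 and 158, neither called (adjusted p = 0.148 and 0.481 from limma).

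**Figure D5:**
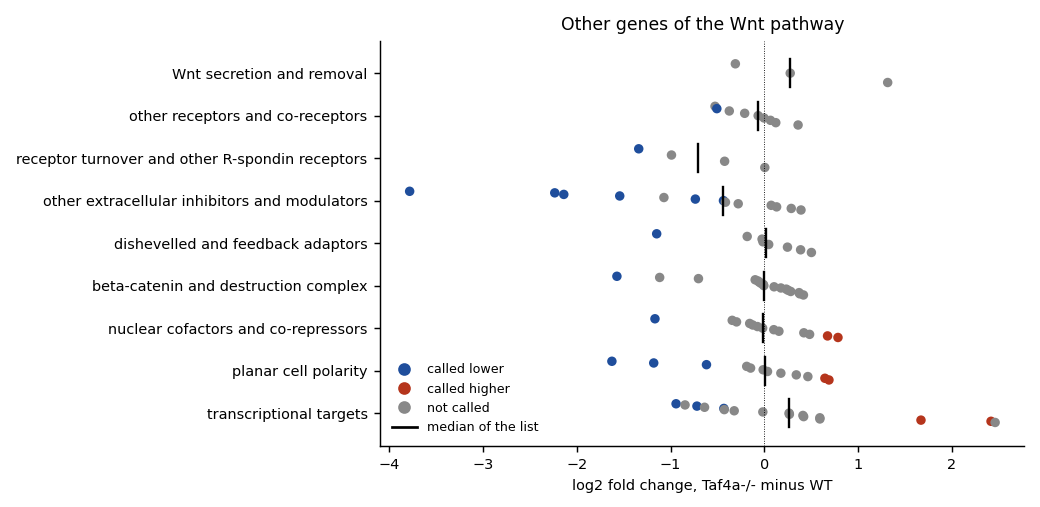
Log2 fold change (libraries labelled *Taf4a*-/- minus WT, x axis) of 96 other tested genes of the Wnt pathway in 9 lists, 1 point per gene, coloured as called lower (blue), called higher (red) or not called (grey), with a black line at the median of each list. The list of other extracellular inhibitors reaches -3.78 and holds 6 of the 17 genes called lower.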

How the data were processed

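The samples were 4 libraries of polyadenylated RNA, 2 WT and 2 *Taf4a*-/-, made with a kit that does not mark strand and grouped by their titles. The submitters' processing notes name CASAVA 1.8, TopHat 1.3.3, HTSeq 0.5.3p1, DESeq and mm9. The authors deposited normalized counts, which are read counts per gene divided by 1 size factor per library. Dividing by the smallest positive value gave whole reads for 100% of values (within 0.01), 21732746 to 27733034 per library. The test was limma 3.58.1 (R 4.3.3) on genes with a mean of at least 10 (eBayes with a variance trend) on log2(normalized count + 1). A gene was called at an adjusted p-value under 0.05 (Benjamini-Hochberg over all genes tested). All adjusted p-values are from this fit unless another is named. Exonic lengths, positions and overlaps were taken from GENCODE M1 on NCBIM37, which is mm9. The genes, lists and tests were chosen with earlier results of these data known. Every gene of the group is named, and of the other lists up to 2 called genes in each direction with the largest changes, plus *Ctnnb1*, *Wls*, *Porcn* and genes said to be extra. In the marker lists, 4 genes, and in the pathway lists 1, were not analysed here. A called gene of the target list is not reported here. The fit was tested on simulated data. The TMM scaling was written for this purpose, and figures were drawn with matplotlib 3.10.9.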

Additional observations from a re-analysis of the deposited data

How the results depend on the processing

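Calls higher and lower in the libraries labelled *Taf4a*-/-, 1906 and 2928 genes, 4 and 14 Wnt genes and 6 and 17 other pathway genes, were 331 and 1119 genes, 0 and 9 Wnt genes and 0 and 6 other pathway genes at an adjusted p-value under 0.01, 747 and 1936 genes, 4 and 12 Wnt genes and 2 and 10 other pathway genes with a 2-fold change required, and 856 and 1741 genes, 1 and 12 Wnt genes and 1 and 9 other pathway genes with no variance trend. With quantile normalization the median over all genes was 0.11, and the calls were 2676 and 2448 genes, 5 and 12 Wnt genes and 10 and 15 other pathway genes, with a median of -0.17 for the Wnt genes instead of -0.32. The counts higher were 2476, 745, 625 and 624 genes, 8, 2, 3 and 6 Wnt genes and 13, 1, 3 and 2 other pathway genes without WT replicate 1, WT replicate 2, and replicates 1 and 2 labelled *Taf4a*-/-, and those lower were 3038, 1222, 1988 and 1921 genes, 11, 10, 13 and 10 Wnt genes and 15, 6, 12 and 8 other pathway genes. The median of the Wnt genes then ran from -0.36 to -0.17. With 1 library left in a genotype, that library is assumed to vary like the others. The replicate number as a block gave 1536 and 2657 genes, 7 and 14 Wnt genes and 9 and 12 other pathway genes, but the correlation of same-numbered deviations was 0.012, so the numbers are not taken to pair the lines. Voom on the recovered reads, added after seeing the data, gave 2134 and 2580 genes, 5 and 12 Wnt genes and 7 and 12 other pathway genes. The cause of these differences was not tested.

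Of the 18 called Wnt genes, 9 kept their call under every alternative run (*Sfrp1*, *Sfrp2*, *Sfrp5*, *Dkk2*, *Dkk3*, *Wnt2*, *Wnt7b*, *Wnt11* and *Fzd1*), and none of the 18 changed sign. With no variance trend *Lef1*, *Tcf7*, *Wnt2b*, *Wnt4*, *Wnt6* and *Fzd5* lost their calls (adjusted p from 0.0514 to 0.102 from limma). Sign changes occurred in 6 of the 31 genes that were not called. *Fzd2* was at 0.049 with equal totals and 0.049 with voom, and with quantile normalization *Rspo3* was at 0.069 and *Wnt1* at 0.23, to be read against 0.11. With 1 library left out the values ran from -0.14 to 0.12 for *Fzd2*, -0.10 to 0.44 for *Fzd3*, -0.27 to 0.11 for *Fzd6*, -0.037 to 0.10 for *Fzd7*, -0.23 to 0.040 for *Rspo3* and -1.66 to 1.51 for *Wnt1*. The edgeR and DESeq2 tests that had been listed were not run. Genes with few counts, such as *Wnt10a*, *Rspo4*, *Sfrp4* and *Wnt16*, are limited by depth.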
